A study of Mus musculus with 2 samples.

Results

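The cytochrome P450 genes were examined in diaphragm muscle of mouse embryos at stage E18.5 (strain label C57/BL6), with 1 array from RP58 knockout muscle (genotype RP58-/-) and 1 from wild-type muscle (RP58+/+). RP58, now named Zbtb18, is a zinc finger transcriptional repressor. How the knockout allele was made, whether it was limited to a cell type, and how many embryos each RNA sample held are not given in the sources used here. Members were all genes whose single symbol in the platform annotation begins with Cyp, a family number, a subfamily letter and a further number, and each gene was read from its probe set with the highest mean over the 2 arrays. This gave 72 genes, read by 95 probe sets, out of 18193 genes with a probe set of 1 symbol. Families 1 to 4 held 56 of the members, the sterol and steroid families 13, the retinoic acid family 2 (Cyp26a1 and Cyp26b1) and family 20 the orphan Cyp20a1. The sterol 14-demethylase Cyp51 carries no subfamily letter and is therefore no member.

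Cytochromes P450 are heme enzymes that insert an oxygen atom into their substrates. Those of the endoplasmic reticulum take electrons from P450 reductase or cytochrome b5, and those of mitochondria from ferredoxin. Families 1 to 4 oxidise drugs, other foreign compounds, fatty acids and eicosanoids and are mainly known from liver, with some members in lung, gut, kidney or skin. The other families carry out defined steps in the making or breakdown of bile acids, steroid hormones, vitamin D, brain cholesterol and retinoic acid. Skeletal muscle fibres are not known as a main site of the hepatic members.

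Values are log2 signals of single probe sets after RMA, so a level cannot be set against that of another gene. With 1 array per genotype no spread between embryos could be estimated, no test was made, and no difference could be checked in replicates. Higher and lower mean here that knockout and wild type differed by at least 1.5-fold (0.58 on the log2 scale). The SD of the difference between probe sets of the same gene was 0.28, pooled over 5675 genes. A floor at the 40th percentile of mean signal (log2 5.52) was passed by 57 of the 72 members and by 14093 genes in all. Each direction rests on the genotype labels, since Zbtb18 itself had a signal of 9.21 on the knockout array and 8.91 on the wild-type array, and so did not check them. The position of its probe set with respect to the deletion is not stated in the labels.

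Many P450 genes were higher in knockout diaphragm, and no member was lower by the size rule. Of the 57 members above the floor, 21 (36.8%) were at least 1.5-fold higher, against a background of 3.83% of all genes above the floor. At least 1.5-fold lower were 0 members, against 6.51% of all genes. The median difference of these 57 members was 0.33, with 46 of 57 above 0, whereas the median of all genes was -0.003, with 49.4% above 0. Poly-A control RNAs added to the samples had a median difference of -0.75, so a scale set by them moves every gene up by that amount, and all directions here are relative to the other genes on the arrays. At least 2-fold higher were 10 members, namely Cyp2f2, Cyp2c68, Cyp7a1, Cyp2d26, Cyp2c23, Cyp2c70, Cyp2a12, Cyp2d10, Cyp4a14 and Cyp2c37, against 0.908% of all genes. Of the 15 members under the floor, none differed by 1.5-fold, and their differences ran from -0.30 (Cyp1a2) to 0.45 (Cyp27b1). Few dim genes of any kind passed the rule. Among the 14093 genes above the floor 540 were higher and 918 lower, and with no floor 604 and 978 of 18193 genes. The lack of calls among dim members is therefore not particular to them. The members just inside the size rule were Cyp2d9 (0.61) and Cyp4a31 (0.62), and those just outside were Cyp2c38 (0.57), Cyp2b10 (-0.57) and Cyp2c50 (0.56).

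**Figure D1:**
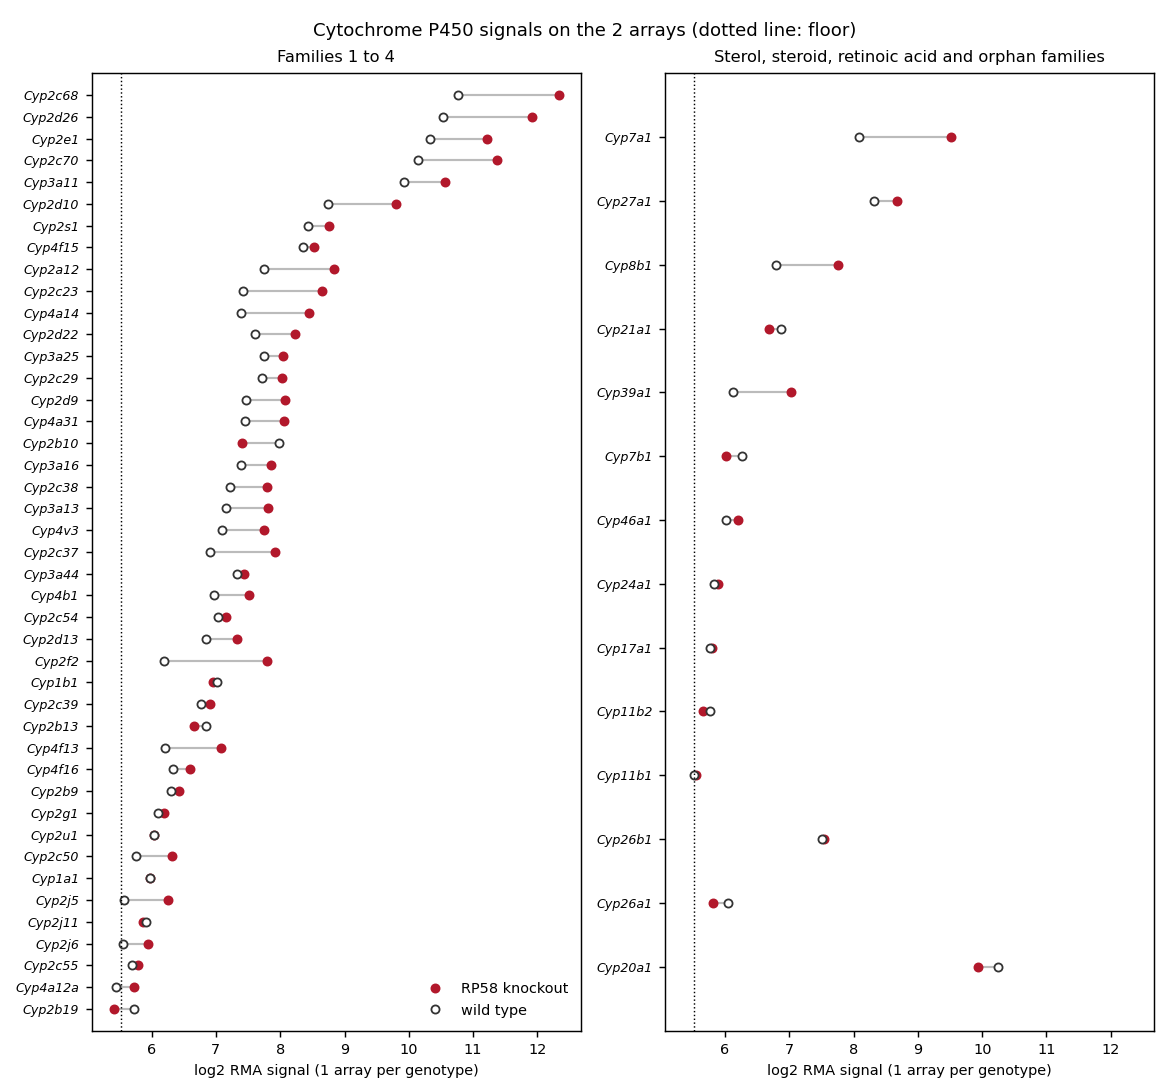
Log2 RMA signal of each of the 57 P450 genes above the floor, with filled circles for the RP58 knockout array and open circles for the wild-type array, 1 array each, joined by a line (families 1 to 4 on the left, other families on the right, dotted line at the floor of 5.52). In 46 of the 57 genes the knockout value lies to the right of the wild-type value, with the longest lines to the right for Cyp2f2 (1.60), Cyp2c68 (1.57) and Cyp7a1 (1.44), and the longest to the left for Cyp2b10 (-0.57).

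Markers of some other tissues also differed. All 14 liver marker genes that passed the floor were above 0 and 7 were at least 1.5-fold higher, with a median of 0.63. The summed signal of the 14 liver markers was 17.17 in knockout and 16.61 in wild type on the log2 scale, and albumin (Alb) stood at 14.30 in knockout and 14.23 in wild type, at the top of the scale on both arrays. Of 7 lung alveolar markers above the floor, 3 were higher, led by the surfactant gene Sftpc, which had a signal of 11.30 in knockout and 7.65 in wild type. Mesothelium markers were higher in 4 of 8 genes and leukocyte markers in 4 of 7, both with a median of 0.60. In the kidney and gut, airway, endothelial and erythroid lists 0 genes were higher. Medians were 0.06 for kidney and gut (1 of 4 lower), 0.18 for airway and -0.22 for endothelium (1 of 7 lower). For erythroid cells the median was -0.12. The 3 airway genes above the floor included Ltf, which neutrophils also make. Of 9 pericyte, smooth muscle and fibroblast markers, 1 was higher (median -0.01). Of 10 muscle fibre markers, 9 were lower, with a median of -1.51 and a summed signal of 15.32 in knockout and 16.33 in wild type. Muscle fibre transcripts were present on both arrays, with skeletal actin (Acta1) at 13.36 in knockout and 13.95 in wild type. The part of these tissue markers in the P450 differences was not tested, and fewer cells of a type cannot be told apart from less RNA per cell. The sex-linked genes also differed: Xist, which coats the inactive X chromosome of female cells, was at 6.96 in knockout and 11.47 in wild type, and the Y-linked gene Eif2s3y at 8.58 in knockout and 3.59 in wild type. Genotype and sex-linked signal cannot be told apart here.

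Promoter sequences are shown for 10 members, 8 because they carry the same short element near the start and 2 as higher members without it. Cyp3a16 and Cyp26a1, both within the size rule, and Cyp2c65, under the floor, also carry it and are not shown. HNF4 is a nuclear receptor of hepatocytes and gut epithelium that binds elements of the CAAAG type. The 250 bases before the annotated start were searched on both strands for CAAAGTNCA (an HNF4-type element), its strict form CAAAGTCCA (which is contained in it), the TATA box TATAAA and the Ah receptor core GCGTG. RefSeq promoters (GRCm38.p6) were found for 51 of the 72 members, 40 of them above the floor. The HNF4-type element occurred in 10 of these 40, a share of 25%, against 379 of 27025 genes with a promoter (1.4%). The 27025 genes, here and for the other motifs, were taken with no floor, and with no floor 11 of 51 members (21.6%) had the element. It was present in 6 of the 15 members that were at least 1.5-fold higher and in 4 of the 25 within the size rule. The strict form occurred in 5 of the 40 (12.5%), against 0.451% of all genes, and the letters TATAAA in 16 of the 40 (40%), against 14.3%. These letters were counted at any place in the 250 bases, so not every match is a working TATA box. In Cyp3a11 they begin 234 bases before the start. The Ah receptor core was found in 8 of the 40 (20%), against 30.9%. Promoters of neighbouring paralogs share ancestry, so these counts are not of independent sequences, and the motifs were chosen with the array values known. Only letters were matched, and binding of HNF4 or any other factor was not tested.

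The windows below hold the 120 bases before the start, 5′ to 3′ on the strand of the gene, with the HNF4-type element in capitals. The first 8 carry it, 6 of them from members at least 1.5-fold higher (Cyp2c68, Cyp2c70, Cyp2c37, Cyp2d26, Cyp3a11 and Cyp8b1) and 2 from members within the size rule (Cyp2c50 and Cyp3a44). The windows left out are not from higher members, so the display holds a larger part of higher members than the full set with the element. Cyp2e1 and Cyp2f2 were also higher and have none in the window. The windows lie, in GRCm38.p6, with Cyp2c68 at chr19:39741102-39741221 (minus strand), Cyp2c70 at chr19:40187287-40187406 (minus strand), Cyp2c37 at chr19:39992304-39992423 (plus strand), Cyp2c50 at chr19:40089559-40089678 (plus strand), Cyp2d26 at chr15:82794246-82794365 (minus strand), Cyp3a11 at chr5:145879855-145879974 (minus strand), Cyp3a44 at chr5:145805875-145805994 (minus strand), Cyp8b1 at chr9:121916306-121916425 (minus strand), Cyp2e1 at chr7:140763699-140763818 (plus strand) and Cyp2f2 at chr7:27119835-27119954 (plus strand).
Cyp2c68: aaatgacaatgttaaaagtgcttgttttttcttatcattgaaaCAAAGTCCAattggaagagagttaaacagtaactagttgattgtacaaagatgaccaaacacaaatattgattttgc
Cyp2c70: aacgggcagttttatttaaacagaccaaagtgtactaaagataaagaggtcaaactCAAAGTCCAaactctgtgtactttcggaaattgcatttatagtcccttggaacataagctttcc
Cyp2c37: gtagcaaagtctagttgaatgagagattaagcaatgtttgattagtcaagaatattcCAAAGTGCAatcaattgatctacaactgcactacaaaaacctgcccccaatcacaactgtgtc
Cyp2c50: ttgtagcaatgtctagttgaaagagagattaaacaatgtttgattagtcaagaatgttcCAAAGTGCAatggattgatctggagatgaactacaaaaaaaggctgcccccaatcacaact
Cyp2d26: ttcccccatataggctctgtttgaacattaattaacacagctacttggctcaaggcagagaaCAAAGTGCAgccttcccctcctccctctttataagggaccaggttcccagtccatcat
Cyp3a11: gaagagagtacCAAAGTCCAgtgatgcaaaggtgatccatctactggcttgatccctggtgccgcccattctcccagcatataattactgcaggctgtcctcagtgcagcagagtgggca
Cyp3a44: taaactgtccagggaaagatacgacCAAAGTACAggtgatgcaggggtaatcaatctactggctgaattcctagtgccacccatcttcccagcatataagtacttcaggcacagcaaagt
Cyp8b1: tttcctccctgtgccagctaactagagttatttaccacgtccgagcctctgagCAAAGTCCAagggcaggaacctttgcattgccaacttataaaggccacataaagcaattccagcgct
Cyp2e1: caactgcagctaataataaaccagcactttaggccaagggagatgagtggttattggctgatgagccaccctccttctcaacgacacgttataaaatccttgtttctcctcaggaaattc
Cyp2f2: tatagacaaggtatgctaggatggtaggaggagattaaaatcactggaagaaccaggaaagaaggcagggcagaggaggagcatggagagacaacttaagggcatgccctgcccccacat
The element begins 58 bases before the start in Cyp2d26, 61 in Cyp2c50, 63 in Cyp2c37, 64 in Cyp2c70, 67 in Cyp8b1, 77 in Cyp2c68, 95 in Cyp3a44 and 109 in Cyp3a11. A TATA box begins 31 bases before the start in both Cyp8b1 and Cyp2e1. Cyp2c37 and Cyp2c50 are neighbouring paralogs with similar windows, and they differed by 1.01 and 0.56 between knockout and wild type.

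Family 2, the largest family in mouse, held most of the higher members. Of its 35 members 28 were above the floor, and 12 of these were at least 1.5-fold higher, with a median of 0.53. The Cyp2c genes, a cluster on chromosome 19 whose products oxidise drugs and arachidonic acid, were above 0 in all 10 members above the floor. Cyp2c68 had a log2 signal of 12.33 in knockout and 10.76 in wild type, a 2.98-fold difference. Cyp2c70, which in mice hydroxylates bile acids to muricholic acids, was at 11.38 in knockout and 10.15 in wild type (2.35-fold). For Cyp2c23, an arachidonic acid epoxygenase that lies apart from the cluster on the same chromosome, the signals were 8.65 in knockout and 7.42 in wild type (2.35-fold). Differences within the subfamily were unequal, which is visible without comparing levels between genes. Cyp2c37 was at 7.92 in knockout and 6.91 in wild type, whereas Cyp2c54 was at 7.15 in knockout and 7.02 in wild type. The retinoic acid and drug oxidising genes Cyp2c39 (0.13) and Cyp2c29 (0.31) and the gene Cyp2c55 (0.08) also differed little. Cyp2c probe sets can share sequence with close paralogs, so the assignment to single genes is uncertain, as it is for the Cyp2d, Cyp3a and Cyp4a genes.

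The Cyp2d genes of chromosome 15, relatives of the human drug-oxidising enzyme CYP2D6, were higher in 4 of the 5 members above the floor. Cyp2d26 had signals of 11.92 in knockout and 10.52 in wild type (2.63-fold), and Cyp2d10 of 9.80 in knockout and 8.73 in wild type (2.09-fold). Cyp2d22 and Cyp2d9 lay just inside the size rule, at 0.62 and 0.61, and Cyp2d13 at 0.50 just outside. A further probe set of Cyp2d22 above the floor read 7.53 in knockout and 7.33 in wild type, a difference of 0.19, so this gene depends on the probe set. Cyp2d12, Cyp2d34 and Cyp2d40 were under the floor.

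Single-gene subfamilies of family 2 included the highest member of all. Cyp2f2, a naphthalene-oxidising enzyme known from airway club cells and also made in liver, had a signal of 7.80 in knockout and 6.20 in wild type, a 3.04-fold difference. Only 13 of the 14093 genes above the floor had a larger positive difference. Of 6 airway markers the defining club cell gene Scgb1a1 was under the floor, at 4.77 in knockout and 5.24 in wild type. The 3 airway markers above the floor had a median of 0.18 with none past the size rule. These were Scgb3a2 at -0.33, Scgb3a1 at 0.18 and Ltf at 0.46. Ltf is also a neutrophil granule gene and so is not particular to airway. Cyp2a12, a steroid- and bile acid-hydroxylating enzyme of liver, was at 8.84 in knockout and 7.74 in wild type (2.15-fold). Cyp2e1, which oxidises ethanol and small solvents, was at 11.22 in knockout and 10.33 in wild type (1.86-fold). Both are genes of adult hepatocytes. Among epoxygenases of the Cyp2j subfamily, Cyp2j5 was at 6.26 in knockout and 5.57 in wild type (1.61-fold), Cyp2j6 differed by 0.38 and Cyp2j11 by -0.06.

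The Cyp2b genes, which in liver are targets of the receptor CAR (Nr1i3), had no member past the size rule. Cyp2b10, the classical phenobarbital-inducible member, was at 7.41 in knockout and 7.98 in wild type, a difference of -0.57, the lowest of the members above the floor. It was -0.24 when the probe sets of this gene were averaged, and 0.18 on the scale of the poly-A spike-ins. Cyp2b19, an epidermal epoxygenase, differed by -0.31, Cyp2b13 by -0.17 and Cyp2b9 by 0.14. The subfamily median was -0.24 over 4 genes, and the median of the Cyp2c genes 0.56 over 10. In RefSeq (GRCm38.p6) the Cyp2b genes lie on chromosome 7, as do Cyp2a12 and Cyp2f2. Within the size rule were also Cyp2s1, of epithelia, which differed by 0.33, Cyp2g1, of olfactory mucosa, by 0.09, and Cyp2u1 by 0.01.

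Family 1, whose members are targets of the Ah receptor, showed no difference by the size rule. Cyp1b1, found in mesenchymal and perivascular cells, was at 6.96 in knockout and 7.02 in wild type, and its other probe set above the floor differed by -0.12. Cyp1a1, the classical Ah receptor target, was at 5.97 on both arrays, and the hepatic gene Cyp1a2 was under the floor at 4.93 in knockout and 5.23 in wild type. The Ah receptor gene Ahr (0.18), its partner Arnt (0.02) and the further targets Nqo1 (-0.19) and Tiparp (-0.24) were also within the size rule.

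Family 3 was above 0 in all 5 members, with a median of 0.47. Cyp3a11, the main drug-oxidising Cyp3a enzyme of adult mouse liver, was at 10.56 in knockout and 9.93 in wild type (1.55-fold). Cyp3a13, found in liver and intestine, was at 7.81 in knockout and 7.16 in wild type (1.57-fold). Cyp3a16, a form of fetal and newborn liver, was at 7.86 in knockout and 7.39 in wild type, within the size rule. Of these 5 genes only Cyp3a11 and Cyp3a13 passed it, with Cyp3a25 at 0.30 and Cyp3a44 at 0.11. A probe set shared by Cyp3a41a and Cyp3a41b, which is no member because it carries both symbols, went the other way, at 7.95 in knockout and 8.35 in wild type.

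Family 4, which hydroxylates fatty acids and eicosanoids at their chain end, was above 0 in all 8 members above the floor, with 4 of them higher and a median of 0.58. Cyp4a14, a target of PPARalpha in liver, was at 8.44 in knockout and 7.39 in wild type (2.07-fold). Cyp4f13 was at 7.07 in knockout and 6.21 in wild type (1.82-fold). Cyp4v3 was at 7.74 in knockout and 7.09 in wild type (1.57-fold), and its dim probe set under the floor differed by 0.25. Cyp4a31 was at 8.06 in knockout and 7.44 in wild type, and a probe set shared with Cyp4a10 was at 8.54 in knockout and 7.30 in wild type. The PPARalpha gene Ppara differed by 0.01. Cyp4b1, known from lung and kidney, differed by 0.55 and the leukotriene hydroxylase Cyp4f15 by 0.17.

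**Figure D2:**
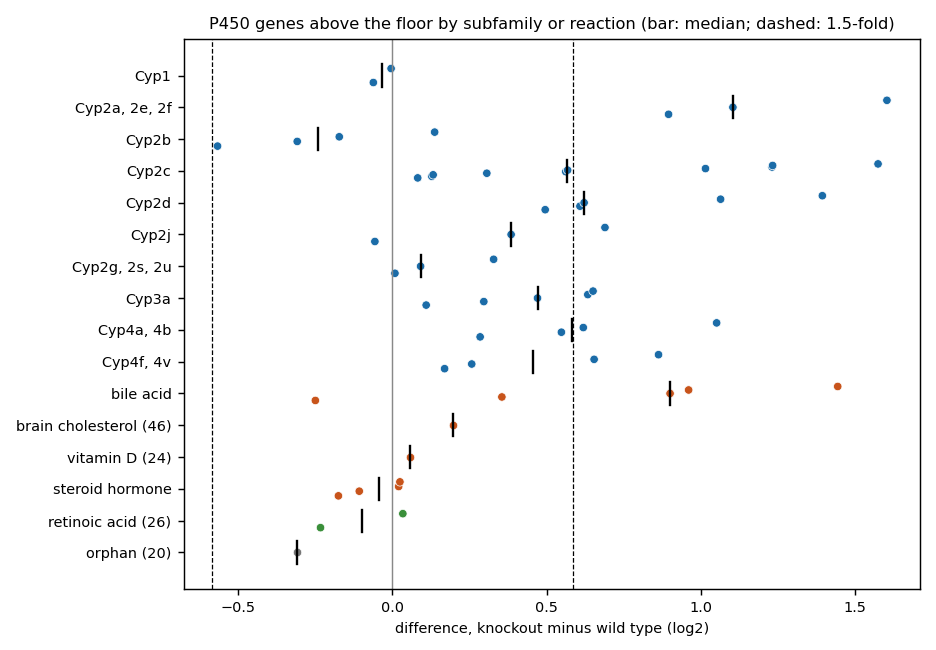
Difference in log2 signal, RP58 knockout minus wild type, of each of the 57 P450 genes above the floor (points), by subfamily or reaction, with bars at the median and dashed lines at 1.5-fold (blue, families 1 to 4, orange, sterol and steroid families, green, retinoic acid family, grey, family 20). The Cyp2c (median 0.56), Cyp2d (0.62) and bile acid genes (0.90) lie to the right of 0 except Cyp7b1 (-0.25), while Cyp1, steroid hormone and retinoic acid genes lie around 0 and 3 of 4 Cyp2b genes lie to its left.

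The sterol and steroid families were uneven, also among genes of the same pathway. Of their 13 members 11 were above the floor, 3 were at least 1.5-fold higher, none was lower, and the median was 0.06. All 3 higher members belong to bile acid synthesis, whose 5 genes had a median of 0.90. Cyp7a1, the rate-limiting enzyme of the classical pathway, was at 9.52 in knockout and 8.08 in wild type (2.72-fold). Its other probe set above the floor read 6.23 in knockout and 5.48 in wild type, in the same direction. Cyp8b1, which sets the share of cholic acid, was at 7.76 in knockout and 6.80 in wild type (1.94-fold). Cyp39a1, an oxysterol hydroxylase of liver, was at 7.02 in knockout and 6.12 in wild type (1.87-fold). The remaining bile acid genes, Cyp27a1 and Cyp7b1, were within the size rule. Cyp27a1, the mitochondrial sterol 27-hydroxylase found in many tissues and in macrophages, was at 8.68 in knockout and 8.32 in wild type. Cyp7b1, the oxysterol hydroxylase of the alternative pathway, was at 6.02 in knockout and 6.27 in wild type, and its other probe set above the floor differed by -0.43.

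P450 genes of steroid hormone synthesis were dim and near 0. The floor was passed by 4 of 5 such genes, none of them past the size rule, and their median was -0.04. Cyp17a1 was at 5.79 in knockout and 5.77 in wild type, Cyp11b1 at 5.54 in knockout and 5.52 in wild type, and Cyp11b2 at 5.66 in knockout and 5.76 in wild type. These enzymes of adrenal and gonad lie close to the floor on both arrays. Cyp21a1, the adrenal 21-hydroxylase, was at 6.69 in knockout and 6.86 in wild type, and the side chain cleavage gene Cyp11a1 was under the floor. Adrenal and gonad markers had a median of -0.10 over 5 genes, with none past the size rule. The neuronal cholesterol hydroxylase Cyp46a1 differed by 0.20 and the vitamin D hydroxylase Cyp24a1 by 0.06, while Cyp27b1, which activates vitamin D, was under the floor.

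Families 1 to 4 and the sterol and steroid families thus had medians of 0.50 over 43 genes and 0.06 over 11, a gap of 0.44 for which no test was made. This gap depended on the floor. With no floor it was 0.089 over all 69 members of both groups, and with the floor at the 60th percentile the order turned, with a gap of -0.28 and only 5 sterol and steroid genes left. Within the sterol families the bile acid genes had a higher median (0.90) than families 1 to 4, and the steroid hormone genes a lower one.

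The retinoic acid hydroxylases and the orphan differed little. Cyp26b1, which clears retinoic acid in embryonic mesenchyme and skin, was at 7.54 in knockout and 7.51 in wild type. Cyp26a1 was at 5.81 in knockout and 6.04 in wild type. Its promoter window holds a match to the HNF4-type letters on the opposite strand, and which factor binds there was not tested. Cyp20a1, a broadly expressed P450 of unknown substrate, was at 9.93 in knockout and 10.24 in wild type, and its other probe set above the floor differed by 0.08. Of 8 other retinoid genes above the floor only Rbp4, the plasma retinol carrier made in liver, was past the size rule, at 12.96 in knockout and 11.99 in wild type. Cyp51, of cholesterol synthesis, was at 7.53 in knockout and 7.86 in wild type on its brightest probe set and differed by -0.60 on another above the floor. Among 17 cholesterol synthesis genes, 1 was higher (Ebp, 0.68) and none lower, with the median at -0.03.

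The size of the difference went with the signal of the probe set. Among the 29 members with a mean signal of at least 7.24, 17 were higher, with a median of 0.62, while among the 28 dimmer members 4 were higher, with a median of 0.09. Spearman's rho between mean signal and difference was 0.55 over the 57 members, which share the 2 arrays, and -0.07 over all 14093 genes above the floor. With the wild-type signal in place of the mean, rho over the 57 members was 0.40. The signals compared also enter the difference itself. RMA compresses differences of dim probe sets, so this relation is a description only. Among all genes, 4.79% of those with a mean of at least 7.24 and 2.4% of the dimmer ones were higher.

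**Figure D3:**
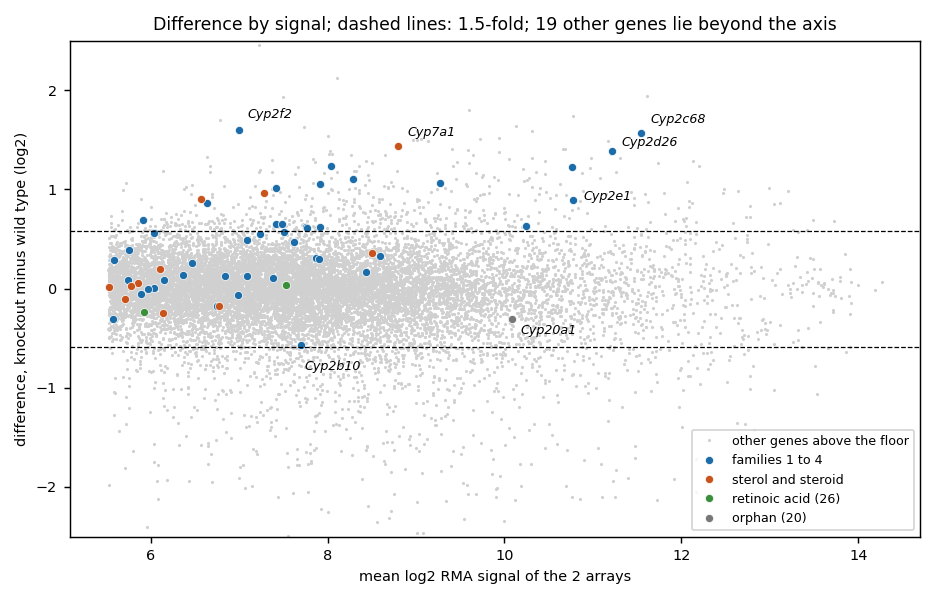
Difference in log2 signal, RP58 knockout minus wild type, against the mean log2 signal of the 2 arrays for the 57 P450 genes above the floor (coloured by family group) and all other genes above the floor (grey), with dashed lines at 1.5-fold and 19 other genes beyond the vertical axis. Above a mean of 7.24 most P450 genes (17 of 29) lie over the upper dashed line, with Cyp20a1 (-0.31) and Cyp2b10 (-0.57) the only members of that range under 0.

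Some electron donors and regulators of P450 genes were higher. Of 8 listed redox partners 5 had a probe set of 1 symbol, and P450 reductase was not among these 5. The cytochrome b5 gene Cyb5a was at 12.50 in knockout and 11.83 in wild type (1.59-fold), and its reductase gene Cyb5r3 at 10.54 in knockout and 9.94 in wild type (1.51-fold). The mitochondrial form Cyb5b differed by -0.37, the ferredoxin Fdx1 by 0.13 and the heme-binding membrane protein gene Pgrmc1 by 0.24. Heme synthesis genes had a median of -0.10 over 7 genes, with the oxidase gene Ppox lower, at 7.46 in knockout and 8.26 in wild type, and Alas1, the rate-limiting enzyme, at -0.32. Of 21 nuclear receptor and other regulator genes above the floor, 4 were higher and none was lower, with a median of 0.18. Nr1h4 (FXR), the bile acid receptor, which lowers Cyp7a1 expression in liver, was at 7.70 in knockout and 6.67 in wild type (2.05-fold). Cebpa, a factor of hepatocytes and adipocytes, was at 8.97 in knockout and 8.21 in wild type, a difference of 0.76, and Foxa2 (0.67) and Rxra (0.66) were the other higher genes. Hnf4a, which is also among the liver markers, was at 9.92 in knockout and 9.34 in wild type, just outside the size rule at 0.57. Whether its product binds the promoter windows shown above was not tested. The drug receptors Nr1i2 (PXR, -0.05) and Nr1i3 (CAR, 0.09) differed by less than the SD between probe sets.

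Enzymes and carriers that act beside the P450s were higher in part. Of 22 other drug and xenobiotic enzymes above the floor, 11 were higher and none was lower, with a median of 0.57. Gsta3, a glutathione transferase, was at 10.71 in knockout and 9.40 in wild type (2.47-fold), the sulfotransferase gene Sult1d1 at 9.07 in knockout and 7.79 in wild type (2.44-fold), and Gstt1 differed by 1.01. The other higher members were Fmo2 (0.91), Gstt2 (0.87), Adh1 (0.75), Ces1d (0.74), Gstm1 (0.71), Sult1a1 (0.66), Ephx2 (0.65) and Ephx1 (0.63). All 8 other bile acid genes were above 0 and 4 were higher, with a median of 0.62. Slc10a1, the bile acid uptake carrier of hepatocytes, was at 11.10 in knockout and 9.51 in wild type (3.01-fold), and Hsd3b7 (0.88), Slc27a5 (0.87) and Acox2 (0.71) followed. Among 10 other steroid hormone genes above the floor 4 were higher, with a median of 0.25: Hsd17b2 (1.27), Hsd11b1 (1.03), Hsd3b1 (1.01) and Srd5a3 (0.75). Star, which delivers cholesterol for steroid hormone synthesis, was at 7.36 in knockout and 7.46 in wild type. Partners in eicosanoid synthesis had a median of 0.10 over 9 genes, with none past the size rule.

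**Figure D4:**
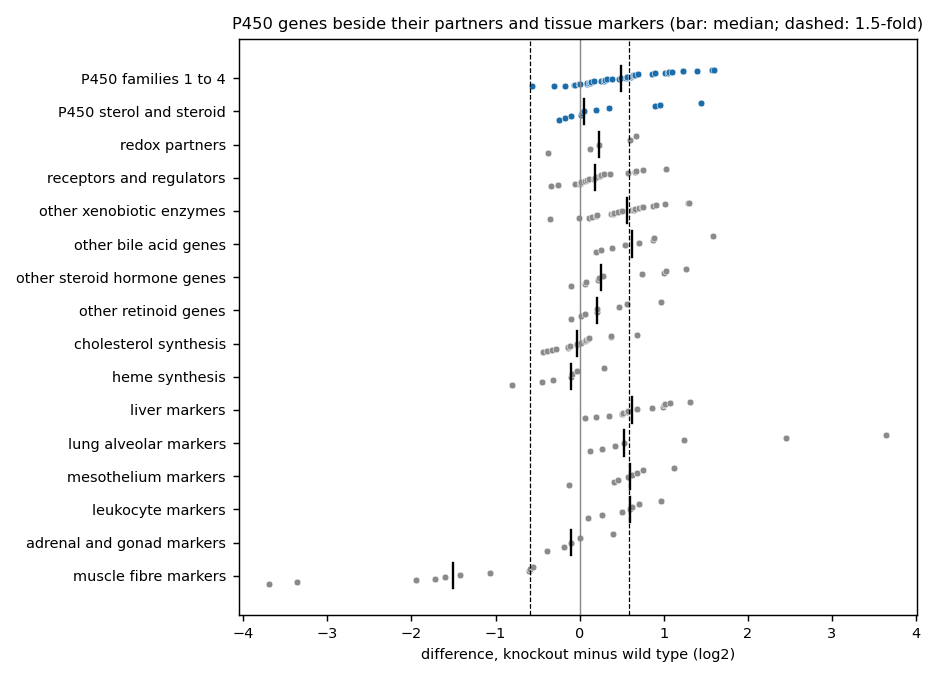
Difference in log2 signal, RP58 knockout minus wild type, of genes above the floor in P450 family groups (blue), partner pathways and tissue marker lists (grey), with bars at the median and dashed lines at 1.5-fold. P450 families 1 to 4 (median 0.50) and other xenobiotic enzymes (0.57) have medians to the right of 0. So do other bile acid genes (0.62) and the liver (0.63), mesothelium (0.60), leukocyte (0.60) and lung alveolar markers (0.53). The sterol and steroid P450s (0.06) lie nearer 0, and muscle fibre markers (-1.51) to the left.

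Several P450 genes are known to differ between the sexes in adult mouse liver, and 6 of them are given here. Whether they differ between the sexes in diaphragm at E18.5 cannot be read from these data. Among genes higher in adult males, Cyp2d9 was at 8.07 in knockout and 7.46 in wild type, Cyp4a12a at 5.73 in knockout and 5.45 in wild type, and Cyp7b1 at 6.02 in knockout and 6.27 in wild type. Of genes higher in adult females, Cyp2b9 (0.14), Cyp2b13 (-0.17) and Cyp3a44 (0.11) differed by less than the SD between probe sets. These 6 genes were chosen after their values were seen, so they do not stand for all P450 genes that differ by sex. The part of embryo sex was not tested.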

How the data were processed

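The authors deposited signals per probe set made with RMA, per the series' design text, and their values are on the log2 scale, as read from their range. The submitters' processing notes list Affymetrix Expression Console 1.1. The design text names a smaller array design than the one whose probe sets the table holds. The table held 45101 probe sets and 2 samples, 1 per genotype. Quantile normalisation removes any difference in total mRNA, and RMA gives no detection call. ISOGEN was used to extract the RNA, which the labels' extract protocol describes as that of a culture and the design text as that of dissected diaphragm. The platform annotation named the genes, all 72 member symbols were current in RefSeq, and probe sets with several symbols (4 of P450 genes) were left out.

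Differences are knockout minus wild type. The members, gene lists, motifs and rules were chosen with earlier results of these data known. The rule for named genes took members past 1.5-fold, the 8 brightest of families 1 to 4, all sterol, steroid and retinoic acid genes above the floor, and those nearest the size rule, 35 in all. Further members and list genes were named with their values known. Alternatives were another summary of probe sets, other floors, 3 scalings, fewer probe set kinds, a 2-fold rule and fewer sterol genes. Python 3.11.15, pandas 2.3.3 and statsmodels 0.14.6 were used.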

Additional observations from a re-analysis of the deposited data

How the results depend on the processing

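No paired analysis was possible because each genotype has 1 array and no test was made. All 21 higher members stayed above 0 under every alternative in which they could be read, but most alternatives could hardly have changed this. Other floors and the 2-fold rule leave each difference as it is, and median centring moves it by 0.02. Averaging could not change the 16 higher members that have 1 probe set. The count of higher members was 10 at 2-fold, and 17 when all probe sets of a gene were averaged. Centring by the median gave 1 lower member (Cyp2b10) where the deposited scale gave 0. At 2-fold 128 of all genes were higher and 326 lower. The poly-A spike-ins differed by -0.75, and scaling to them raised every difference by that amount: 50 members and 9990 of all genes were then higher and 182 of all genes lower, and medians were 1.08 for the members, 1.24 for families 1 to 4 and 0.80 for the sterol and steroid families. With the floor at the 60th percentile the medians were 0.61 for the 38 members left and 0.90 for 5 sterol and steroid genes, and the gap between the family groups was -0.28, against 0.089 with no floor; fewer genes were read in the one and more in the other. Signals near the floor and near the top of the scale limit what small differences can show.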
